A study of Ericerus pela with 2 samples.

Results

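The unigenes described here carry the names of enzymes and carriers that make, split and move triglyceride in an insect. A unigene is an assembled transcript fragment. Members were chosen by words in the deposited protein database match, among them acylglycerol O-acyltransferase, glycerol-3-phosphate acyltransferase, lipase, perilipin, lipophorin, apolipoprotein and fatty acid-binding. Phospholipases (39 unigenes) and lipophorin receptors (10) were left out, which kept 69 of the 118 unigenes with such a word, out of 120710 with reads in at least 1 library. By name they fell into 7 roles. No unigene was named perilipin, lipid storage droplet protein, fatty acid-binding protein, or monoglyceride or diacylglycerol lipase.

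The RNA came from males of the white wax scale insect Ericerus pela, labelled wild type. There was 1 library from pupae, with reads on 94524 unigenes, and a somewhat deeper 1 from prepupae, with reads on 106752, so no difference below could be checked against replicates and none carries a p-value. The labels give the whole body as the tissue, an age of 90 without a unit in both stages, and no count of pooled animals. The submitters' design note speaks of retina. Markers of other tissues were found in both libraries: 16 muscle unigenes held 730 reads in pupae and 373 in prepupae, 19 cuticle unigenes 1348 and 169, 17 neuronal unigenes 1180 and 899, and 9 photoreceptor unigenes 1348 and 38. The part of these tissues in the values below was not tested. In RNA of whole animals, fewer cells of a type and less RNA per cell cannot be told apart.

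Insects store fat as triglyceride, mostly in the fat body. Glycerol-3-phosphate acyltransferase (GPAT) and 1-acylglycerol-3-phosphate acyltransferase (AGPAT) attach fatty acids to the glycerol backbone, and after removal of the phosphate, diacylglycerol acyltransferase (DGAT) adds the last acyl chain. Monoacylglycerol acyltransferase (MGAT) reaches diacylglycerol without the phosphate route. Lipases release the fatty acids again, and lipophorin, the main lipid carrier of insect blood, takes diacylglycerol to muscle and other tissues. Metamorphosing males of scale insects do not feed and draw on such stores.

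As a whole the members took close to the same share of reads in both stages, while single acyltransferase and lipase unigenes differed strongly in both directions. The 69 unigenes held 2952 reads in pupae, 0.160% of the library (exact 95% binomial interval 0.155 to 0.166), against 3511 reads in prepupae, 0.161% (0.156 to 0.166). After scaling to the library totals the ratio of pupae to prepupae was 0.997 (0.949 to 1.05, a 95% interval for counting error, as in all ratios below). It was 1.31 with trimmed-mean (TMM) scaling and 1.26 with median-of-ratios scaling; the median unigene of the whole series was lower in pupae by 0.49 on the log2 scale.

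The level of a unigene is given as RPKM, reads scaled to its length and to the library total. Calls follow a fixed size: RPKM plus 1 had to differ 2-fold or more, and the mean RPKM of both libraries had to reach 1. The added 1 understates the change of low unigenes. Of the 69, 67 passed that filter. Among these, 18 were higher, against a background of 23.0% of all unigenes, 28 were lower, against 39.4%, and 21 were neither. These shares, 26.9% and 41.8%, lay near the background, which is no result about the members. All members have a database match by the rule. Over the unigenes with a match 14.7% were higher, a smaller share than in the members, and 41.4% lower. The members' median log2 ratio was −0.29, beside −0.49 for all unigenes that passed, and it was 0.09 with TMM scaling and 0.20 after centring on that overall median.

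Differences among well-covered members were large. Of the 36 members with at least 50 reads over both libraries, 10 were higher (19.8% of all unigenes of that depth) and 15 lower (36.2%). A difference of 8-fold or more was seen in 14 of them, 38.9%, beside 13.4% of all unigenes of that depth and 10.9% of those with a database match. Of the 14, 7 were higher in pupae, beside backgrounds of 6.61% and 4.53% for the same comparison, and 7 were lower, beside 6.74% and 6.34%. The median absolute log2 ratio was 1.996 in the 36 members and 1.16 in all such unigenes. By role it was 4.26 for the 12 MGAT and DGAT unigenes, 4.32 for 6 acid lipases, and 0.21 for 8 lipophorin unigenes. The carriers of lipid in the blood thus differed little, and the MGAT and DGAT unigenes and acid lipases most. Of members with at least 50 reads, 1 had no read in prepupae and 5 had no read in pupae; over all unigenes these shares were 0.746% and 1.38%.

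**Figure D1:**
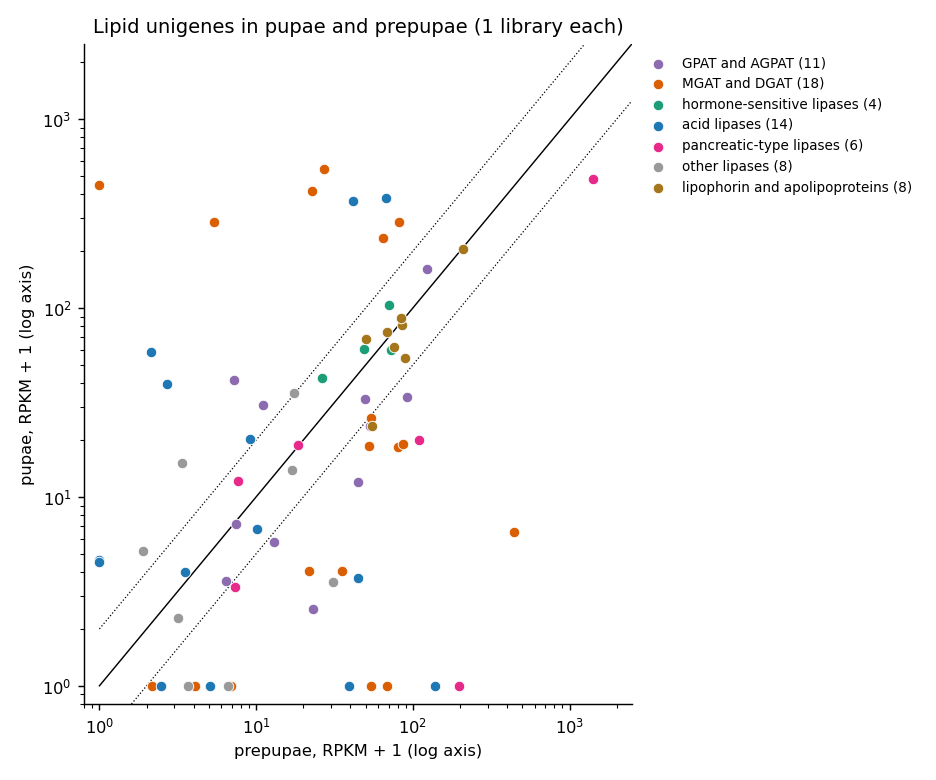
RPKM plus 1 in pupae (vertical) against prepupae (horizontal) for the 69 members, both on log axes, with colour by role; the solid line marks equality and the dotted lines a 2-fold difference. The MGAT and DGAT unigenes lie above or below the dotted lines, with 5 at 0 reads in pupae and 1 at 0 reads in prepupae, while 7 of 8 lipophorin and apolipoprotein unigenes and all 4 hormone-sensitive lipases lie between the lines.

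The 3 unigenes named GPAT, the enzyme of the first acyl transfer, held few reads, most of them in prepupae. A mitochondrial-type GPAT, Unigene156196 (1058 bases; all identifiers end in _FOB in the files), had 3 reads in pupae and 51 in prepupae. This was 14.3-fold lower in pupae (4.64 to 71.8), with levels of 1.54 and 22.1 RPKM. Reads covered 13.9% of its length in pupae and 81.6% in prepupae. The other 2 unigenes named GPAT had 2 reads each in pupae, against 6 and 5 in prepupae, too few to tell apart at this depth. Together the 3 held 7 reads in pupae and 62 in prepupae, 7.47-fold lower (3.42 to 19.4).

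AGPAT, the enzyme of the second acyl transfer, rested on 8 unigenes that did not share a direction. The 2 unigenes matching the same pea aphid AGPAT were both lower in pupae: Unigene156178 had 44 reads in pupae and 121 in prepupae (2.32-fold lower, 1.63 to 3.36), and Unigene126579 had 19 and 62 (2.75-fold lower, 1.62 to 4.88). After centring on the overall median neither passed the rule any longer, with log2 ratios of −0.69 and −0.94. Against these, the unigene with most reads, Unigene138646, had 117 reads in pupae and 106 in prepupae, at 160 and 122 RPKM. It was named AGPAT zeta, a name also used in mammals for an endoplasmic reticulum GPAT, and its 1.31-fold ratio (0.997 to 1.72) did not exclude equality. If it is counted as GPAT, that step holds 124 reads in pupae and 168 in prepupae, a ratio of 0.875 (0.688 to 1.11) that includes equality, so the lower GPAT sum depends on this name. Among those with fewer reads, Unigene146942, named AGPAT alpha, had 38 reads in pupae and 7 in prepupae (6.43-fold higher, 2.84 to 17.1). Going the other way, Unigene77129 had 4 and 19 (4.01-fold lower, 1.33 to 16.2). Both were outside the naming rule and picked after their values were seen. Of the 8, 2 were called higher and 3 lower, beside 23.0% and 39.4% of all unigenes, each with an interval that excluded equality. Summed over the 11 GPAT and AGPAT unigenes, pupae held 262 reads and prepupae 413, a ratio of 0.752 (0.642 to 0.880) that was 0.988 with TMM scaling.

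The unigenes named MGAT or DGAT split into a pupal and a prepupal set. All 17 MGAT and DGAT unigenes that passed the filter were past the 2-fold rule, 6 higher and 11 lower in pupae, beside the 23.0% and 39.4% of all unigenes. The interval excluded equality for all 6 higher but for 7 of the 11 lower ones. All 6 higher ones had at least 50 reads over both libraries, while the lower ones included unigenes with 9, 3 and 1. The 1 below the filter had a single read, in prepupae. After centring, 6 were higher and 10 lower. The names do not separate MGAT from DGAT here, since matches to proteins of both names occur in each set. The 6 higher unigenes held 916 of the 976 pupal reads of this role (93.9%) and 119 of the 827 prepupal ones (14.4%). The 11 lower unigenes held 6.15% of the pupal reads and 85.5% of the prepupal ones. These shares follow from sorting unigenes by their own difference and are given as a description.

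In the pupal set, Unigene53767, matched to a DGAT family protein of the ciliate Tetrahymena thermophila, had 139 reads in pupae and 0 in prepupae. Against a floor of 3 reads in prepupae it was at least 54.9-fold higher; that bound takes the pupal count as exact, and the lower end of the counting interval, given with each such bound below, was 44.1. Reads covered 98.2% of its 169 bases in pupae. Unigene84744, matched to a tick DGAT, had 109 reads in pupae and 2 in prepupae (64.6-fold higher, 17.5 to 540). Both were therefore near or under the limit of detection in prepupae and well covered in pupae.

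A further 3 unigenes, named MGAT2, had 192 to 195 pupal reads each. Unigene71877 had 192 reads in pupae and 11 in prepupae (20.7-fold higher, 11.3 to 42.1), and at 543 RPKM it was in the top 0.581% of unigenes listed for pupae. Unigene108872, with a match that is also named diacylglycerol acyltransferase 2-like, reached 417 RPKM in pupae, against 21.7 in prepupae. Unigene135893 had 195 and 66 reads, a smaller difference of 3.50-fold (2.64 to 4.70). The sixth, Unigene80679, was named DGAT2-like protein 6 and had 87 reads in pupae and 28 in prepupae, 3.68-fold higher (2.38 to 5.86). All 6 were short, between 169 and 374 bases.

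In the prepupal set, the tick-matched DGAT Unigene122819 was by far the strongest, with 3 reads in pupae and 284 in prepupae, at 5.49 and 438 RPKM. It stood in the top 0.159% of unigenes listed for prepupae, and reads covered 39.4% of it in pupae and 98.99% in prepupae. A pair with neighbouring identifiers and the same length of 688 bases, Unigene152435 and Unigene152436, matched DGAT2-like proteins of pig and catfish. The first had 22 reads in pupae and 119 in prepupae (4.56-fold lower, 2.88 to 7.56), and the second had 0 and 80, at least 22.5-fold lower against the floor (interval from 17.9). Reads were counted only where they fitted 1 unigene, so how such a pair shared its reads is uncertain.

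Unigene135912, named MGAT2, had 0 reads in pupae and 55 in prepupae, at least 15.5-fold lower against the floor (interval from 12.2). Unigene114913, matched to a mosquito 2-acylglycerol acyltransferase 2-A, had 9 and 50 (4.69-fold lower, 2.28 to 10.8), and Unigene135592, matched to a louse DGAT, had 12 and 42 (2.95-fold lower, 1.53 to 6.16). A second unigene matching that same louse protein had 10 and 25 reads, lower by size but with an interval that includes equality. A single unigene was named DGAT1, the unrelated second type of DGAT in animals, and it had 0 reads in pupae and 1 in prepupae.

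**Figure D2:**
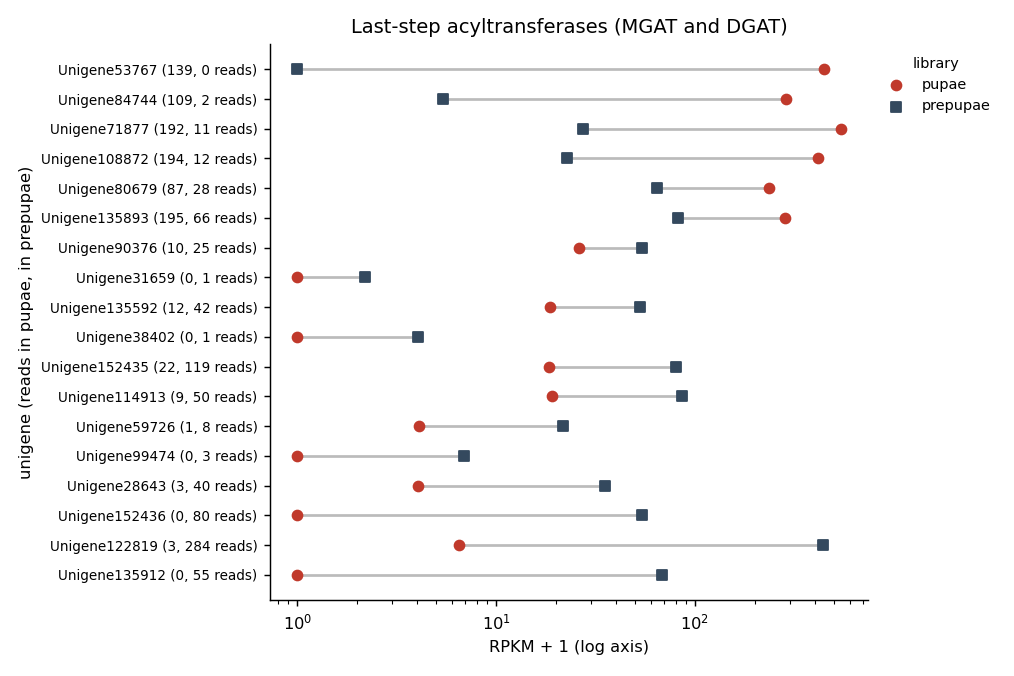
RPKM plus 1 on a log axis for each MGAT and DGAT unigene in pupae (circles) and prepupae (squares), ordered by log2 ratio, with reads in both libraries beside each name. The 6 upper unigenes lie between 234 and 543 RPKM in pupae, and the 12 lower ones all have their circle left of their square.

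Summed over the 18, pupae held 976 reads and prepupae 827, 1.40-fold higher (1.27 to 1.54). The median log2 ratio of those that passed the filter, −2.02, was opposite in direction. That median was the value of the unigene named DGAT1, which had a single read. Of the 18, 12 had at least 50 reads over both libraries, among them all 6 higher ones. The sum also depended on the choice of unigenes. Without Unigene122819 it was 2.12-fold higher, and over the 3 unigenes of at least 500 bases it was 0.124. Several unigenes may be fragments of 1 transcript, so 6 and 11 unigenes are not 6 and 11 genes.

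Lipases differed by family. Hormone-sensitive lipase, which frees fatty acids from stored acylglycerols in the fat cell, was slightly higher in pupae in its summed reads. Its unigene with most reads, Unigene148131, had 102 reads in pupae and 82 in prepupae, at 103 and 70.0 RPKM (1.47-fold, 1.09 to 1.997). Unigene128022 had 35 and 50 reads, Unigene134763 had 28 and 20, and Unigene49941 had 18 and 17. None of the 4 passed the rule of size; after centring, Unigene148131 and Unigene134763 would, with log2 ratios of 1.04 and 1.20. In sum pupae held 183 reads and prepupae 169 (1.28-fold, 1.04 to 1.59), and the ratio was 1.69 with TMM scaling.

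Acid lipases, named lysosomal acid lipase, lipase 1 or lipase 3, had the highest sum relative to prepupae of the lipase families. Lysosomal acid lipase splits triglycerides and cholesterol esters inside lysosomes, and a lipase 3 of Drosophila is known to be induced by starvation. Of 13 unigenes that passed the filter, 7 were higher in pupae, 4 lower and 2 neither, beside 23.0% higher and 39.4% lower of all unigenes, and the same counts held after centring. The interval excluded equality for 5 of the 7 and 3 of the 4; the remaining 2 higher ones had 2 reads in pupae and 0 in prepupae. Pupae held 626 reads and prepupae 238, 3.12-fold higher (2.68 to 3.64). More than a single unigene took part, but Unigene145494 weighed most: without it the ratio was 1.81.

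That unigene, named lipase 3, had 329 reads in pupae and 43 in prepupae, 9.07-fold higher (6.59 to 12.8), and 368 RPKM placed it in the top 1.04% for pupae. Unigene56180, a lysosomal acid lipase, reached a similar level of 383 RPKM in pupae, against 66.2 in prepupae (5.78-fold higher, 3.74 to 9.29). Another of that name, Unigene154156 (798 bases), had 84 reads in pupae and 2 in prepupae, 49.8-fold higher (13.4 to 418). Reads covered 95.4% of it in pupae and 12.3% in prepupae. Unigene33953, named lipase 1 (813 bases), had 58 and 3 reads, 22.9-fold higher (7.46 to 114). These 4 formed nearly all of the pupal acid lipase signal.

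Other unigenes of the same names were found in prepupae alone or nearly so. Unigene75903, also named lipase 1, had 0 reads in pupae and 59 in prepupae, where it stood at 137 RPKM, and was at least 16.6-fold lower in pupae against the floor (interval from 13.1). Unigene153141, named lipase 3, had 0 reads in pupae and 60 in prepupae, spread over 81.8% of its 726 bases (at least 16.9-fold lower against the floor, interval from 13.3). A further lipase 3, Unigene78500, had 1 read in pupae and 19 in prepupae; it was picked after its values were seen. The 2 named unigenes with no pupal read thus carried the same names as unigenes with 58 and 329 reads in pupae.

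Pancreatic-type lipases, the family of secreted lipases that in mammals digest fat and act on lipoproteins, were lower in pupae in their summed reads. Of 6 unigenes, 4 were lower and none higher, beside 39.4% lower and 23.0% higher of all unigenes. The interval excluded equality for 3 of the 4. Pupae held 270 reads and prepupae 1034 (3.23-fold lower, 2.82 to 3.71). After centring, 3 were lower and 1 higher. Most of these reads came from Unigene19105, named pancreatic lipase related protein 1, with 229 reads in pupae and 788 in prepupae. At 484 RPKM in pupae and 1405 RPKM in prepupae, it was 2.90-fold lower (2.50 to 3.38). In prepupae it ranked 9 of all 106752 unigenes by RPKM, and in pupae 643 of 94524, the highest level of any member in prepupae.

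Unigene128886, named endothelial lipase, had 0 reads in pupae and 139 in prepupae, at least 39.1-fold lower against the floor (interval from 31.4). Unigene119494, a pancreatic triacylglycerol lipase, had 10 and 67 reads (5.65-fold lower, 2.89 to 12.3). Another 2 of that name, Unigene134818 and Unigene33832, had 12 and 14 reads in pupae, against 14 and 10 in prepupae. Unigene156591 (1165 bases) matched the same pea aphid protein as Unigene19105 but had only 5 reads in pupae and 16 in prepupae, at 2.33 and 6.29 RPKM. It was lower by size, with an interval that included equality. Without Unigene19105 the summed ratio was 0.198, and over the 2 unigenes of at least 500 bases it was 0.866.

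The 8 lipases without a family name carried 64 reads in pupae and 88 in prepupae. Of them 3 were higher, 3 lower and 2 neither, beside 23.0% higher and 39.4% lower of all unigenes. The interval excluded equality for 1 higher and 1 lower. Among the 8, Unigene144782 had 30 and 17 reads (2.09-fold higher, 1.12 to 4.04), a call that was lost with a pseudocount of 5 RPKM. Unigene141549 had 2 and 28 reads (11.8-fold lower, 2.98 to 102), and Unigene155389 had 22 and 32 reads and was not called. Their summed ratio of 0.862 (0.615 to 1.20) included equality.

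**Figure D3:**
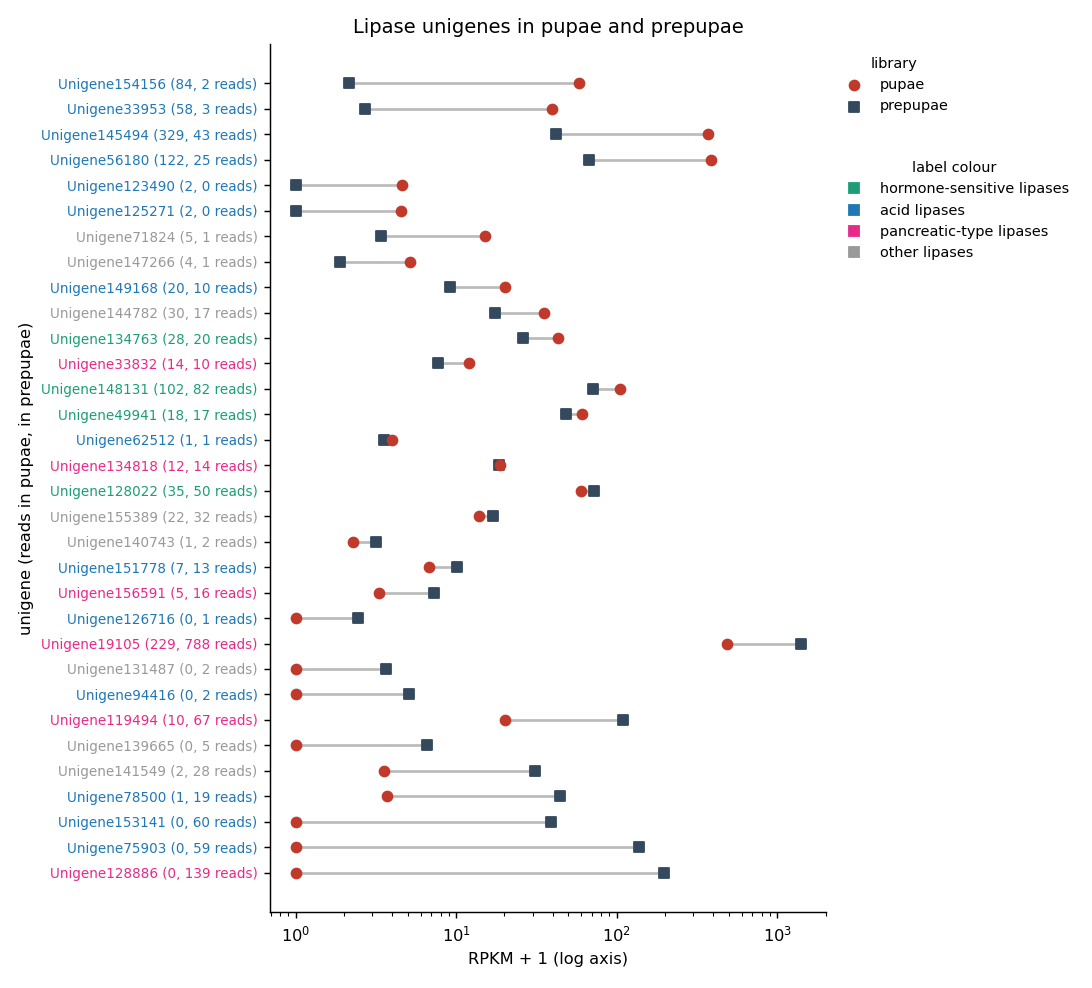
RPKM plus 1 on a log axis for the 32 lipase unigenes in pupae (circles) and prepupae (squares), ordered by log2 ratio, with label colour by family and reads in both libraries beside each name. Acid lipases stand near both ends of the order, hormone-sensitive lipases in the middle, and the pancreatic-type Unigene19105 reaches furthest right in both libraries.

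Lipophorin was the steadiest role. All 8 unigenes had at least 50 reads, and 7 of them, all named lipophorin or apolipophorins, lay within the 2-fold rule. Unigene155837 had 146 reads in pupae and 181 in prepupae, at 80.2 and 83.9 RPKM (0.956-fold, 0.764 to 1.20). Unigene97972 had 87 and 104 reads, at 205 and 207 RPKM, and was the most abundant per length. The intervals of 6 of these 7 included equality, and Unigene143798, with 45 and 88 reads, was 1.65-fold lower (1.14 to 2.42).

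Apolipophorins arise from a single very long precursor that is cut into chains, so several of these unigenes may be pieces of 1 transcript. Unigene154840 and Unigene142513, which matched the same planthopper lipophorin, had 97 and 71 reads in pupae, against 141 and 80 in prepupae. Unigene142883 had 60 and 65 reads and Unigene139683 had 51 and 44. The 1 unigene past the rule was Unigene130201, matched to a beetle apolipoprotein precursor, with 14 reads in pupae and 39 in prepupae (2.35-fold lower, 1.25 to 4.69); after centring its log2 ratio was −0.71 and it passed no longer. In sum the role held 571 reads in pupae and 742 in prepupae, a ratio of 0.912 (0.816 to 1.02) on the deposited scale that turned to 1.20 with TMM scaling and 1.15 with median-of-ratios scaling.

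**Figure D4:**
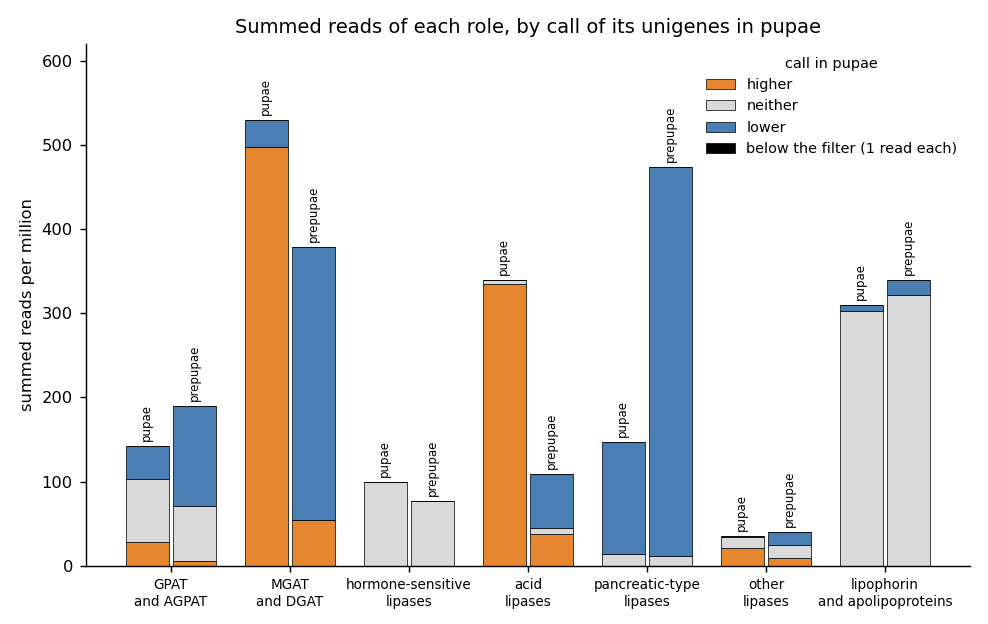
Summed RPM (reads scaled to the library total) for each role, pupae in the left bar and prepupae in the right bar of each pair, split by the call of the unigenes in pupae. The MGAT and DGAT bars change from mostly lower-called reads in prepupae to mostly higher-called reads in pupae, and the lipophorin bars consist almost wholly of reads of unigenes that were neither.

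A total of 26 members shared their matched protein with another member, over 12 proteins, and for 3 of these proteins the members were called in opposite directions. The 2 unigenes matching a honeybee MGAT2 had 195 reads in pupae and 66 in prepupae and 0 and 3 reads, the latter with an interval that included equality. The DGAT2-like protein 6 of pig was matched by 3 unigenes, Unigene80679 higher in pupae and Unigene152435 and Unigene28643 lower. The third protein was a lipase 3 of the ant Harpegnathos saltator, where Unigene153141 was lower and the others had 2 reads each, with intervals that included equality. Only for the pig protein did the intervals of the opposite calls exclude equality, so there a shared best match did not mean a shared direction.

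The partners of these enzymes were looked up by name whatever their change. Their calls stand beside 14.7% higher and 41.4% lower of all unigenes with a database match. Upstream of them, all 5 unigenes of acetyl-CoA carboxylase, which supplies malonyl-CoA for fatty acid synthesis, were lower in pupae, with 49 reads in pupae and 732 in prepupae (12.6-fold lower, 9.43 to 17.2). Lipin-2, which removes the phosphate between the AGPAT and DGAT steps, went the other way, with 139 reads in pupae and 39 in prepupae (4.22-fold higher, 2.94 to 6.19). The other unigene found under phosphatase names, lipid phosphate phosphohydrolase 1, had 14 reads in pupae and 30 in prepupae and was not called. Seipin, a protein of lipid droplet formation, had 27 and 62 reads and was not called. No unigene was named for CGI-58, the activator of the main triglyceride lipase. No member was named for that lipase, adipose triglyceride lipase, and unigenes named phospholipase were outside the members by the rule.

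Enzymes that act on fatty acids and glycerol did not share a direction. Long-chain fatty acid CoA ligase couples fatty acids to coenzyme A for oxidation or for new lipid; of its 8 unigenes 7 were higher and 1 lower, with 2572 reads in pupae and 273 in prepupae (11.2-fold higher, 9.85 to 12.7). Glycerol kinase, which returns free glycerol to glycerol-3-phosphate, had 2 of 8 unigenes higher and 5 lower (2 and 3 after centring). Its sum of 1086 reads in pupae and 368 in prepupae (3.50-fold higher, 3.11 to 3.95) came mainly from Unigene114115 with 673 and 63 reads and Unigene101487 with 334 and 28. All 3 unigenes of glycerol-3-phosphate dehydrogenase were higher, with 2034 reads in pupae and 297 in prepupae. The 2 unigenes of carnitine palmitoyltransferase 2, which acts in mitochondrial uptake of fatty acids, had 34 reads in pupae and 124 in prepupae, 1 of them lower by the rule.

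Among signals and carriers, adipokinetic hormone, which triggers release of fat body lipid, had 41 reads in pupae and 15 in prepupae (3.24-fold higher, 1.76 to 6.30). The 3 unigenes of its receptor held 101 and 111 reads, and none was called. Microsomal triglyceride transfer protein, which loads lipid onto lipophorin, had 93 reads in pupae and 170 in prepupae over 2 unigenes, 1 of them lower (2.18-fold, 1.45 to 3.35) and no longer past the rule after centring. Fatty acid transport protein had 88 and 175 reads over 3 unigenes, none called. The single acyl-CoA-binding protein had 18 and 55 reads (2.58-fold lower, 1.49 to 4.66), and after centring it was not called. Sterol regulatory element-binding protein, a regulator of lipid synthesis genes, had 291 and 424 reads over 3 unigenes, none called, with a ratio of 0.814 (0.698 to 0.947) that turned to 1.07 with TMM scaling.

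Of the lipophorin receptors, 4 of 10 unigenes were higher in pupae, 2 lower and 4 neither. The 3 longest, Unigene155418, Unigene151015 and Unigene137402, had 73, 67 and 60 reads in pupae, against 41, 38 and 31 in prepupae, and their ratios of 2.11, 2.09 and 2.29 were alike. In contrast, the short pair Unigene58359 and Unigene58360, with neighbouring identifiers and 176 bases each, had 0 and 4 reads in pupae, against 86 and 35 in prepupae. The 4 vitellogenin unigenes, read as a fat body marker here, held 131 reads in pupae and 699 in prepupae (4.50-fold lower, 3.73 to 5.47), and no unigene was named hexamerin, arylphorin or storage protein. This marker moved with the lower acyltransferase and lipase unigenes but against the higher ones, while the summed lipophorin ratio was 0.912 (0.816 to 1.02). Its part in any of these was not tested, nor was its use as a measure of fat body in males.

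**Figure D5:**
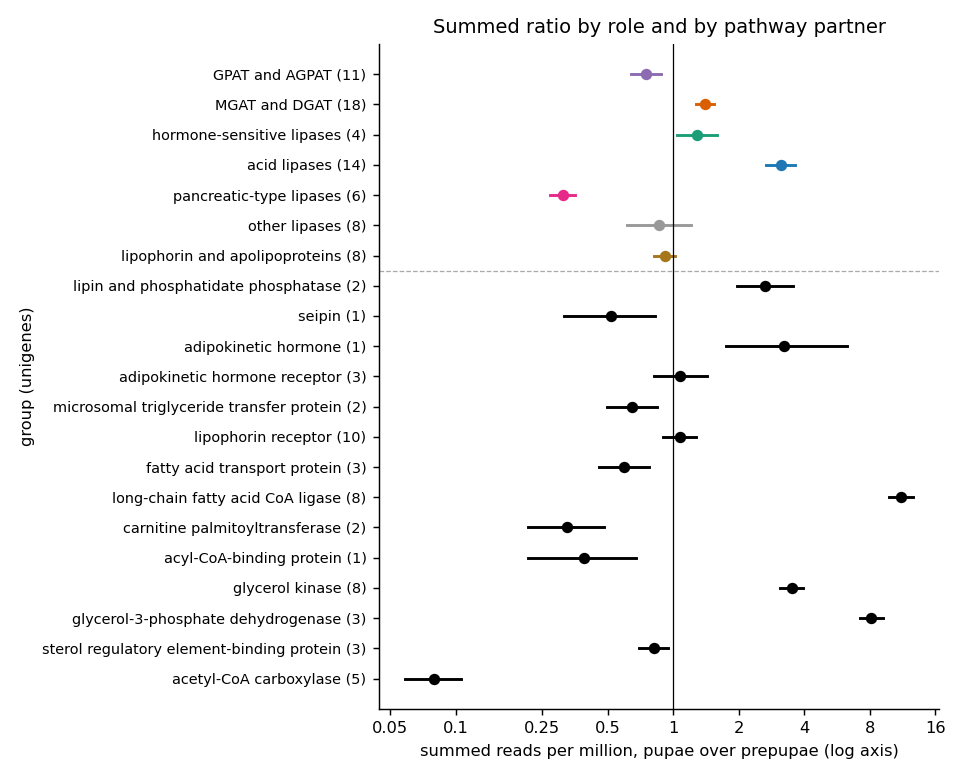
Ratio of summed RPM, pupae over prepupae, on a log axis for the 7 roles (coloured, above the dashed line) and for pathway partners (black), with the number of unigenes in brackets and bars for the 95% counting interval. The LDL receptor family, vitellogenin receptor and CD36 family lists are not drawn. Acetyl-CoA carboxylase lies at 0.0793 and long-chain fatty acid CoA ligase at 11.2, with the 7 roles between 0.310 and 3.12.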

How the data were processed

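RNA of male pupae and male prepupae was sequenced as 1 library each. Per the file headers, the deposited tables hold the count of uniquely assigned reads, the unigene length, the percent of length covered and RPKM. The authors' counts summed to 1840877 in pupae and 2182108 in prepupae, and RPKM could be recomputed from them within a relative tolerance of 1e-06. The assembler, the aligner and any use of strand were not given in the sources used here. No genome was used, so unigenes have no positions here.

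Both tables were merged by unigene, and an absent unigene was given 0 reads. The words left out by the rule besides phospholipase matched nothing but lipophorin receptors. Members and lists were chosen with earlier results of these data known. Named were members with at least 50 reads, the 3 with most reads per role, and those with 0 reads in 1 library and at least 20 in the other. Exceptions are marked, except Unigene28643, Unigene33832, Unigene49941, Unigene134818 and Unigene156591, added to describe more of their groups. Single unigenes of partner lists were picked after their values were seen. Ratios are RPM ratios (each count divided by its library's sum), with the exact conditional binomial 95% interval for counting error only, tested on simulated data. Against 0 reads a floor of 3 reads (1.63 RPM in pupae, 1.37 in prepupae) gives a lower bound. With 1 library per stage there is no test and no p-value. TMM factors came from edgeR 4.0.16; Python 3.11.15 and scipy 1.17.1 did the rest. Alternatives changed the pseudocount, filters, scaling and the choice of members.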

Additional observations from a re-analysis of the deposited data

How the results depend on the processing

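The counts of 18 higher and 28 lower members stayed within 1.5 times under the other pseudocounts, filters and scalings, except for smaller sets of members: at least 50 reads gave 10 and 15, and at least 500 bases, added after the data were seen, gave 5 and 7. The median log2 ratio of −0.29 turned to 0.0917 with TMM scaling, 0.0415 with median-of-ratios scaling and 0.20 after centring, and was −1.20 over members whose counting interval excludes equality, an alternative also added later. With TMM and median-of-ratios scaling the summed ratios were 1.31 and 1.26 for all members, 0.988 and 0.952 for GPAT and AGPAT, 1.84 and 1.77 for MGAT and DGAT, 1.69 and 1.62 for hormone-sensitive lipases, 4.09 and 3.95 for acid lipases, 0.407 and 0.392 for pancreatic-type lipases, and 1.20 and 1.15 for lipophorin. Over members of at least 500 bases they were 0.818 for all, 0.563 for GPAT and AGPAT, 0.124 for MGAT and DGAT (opposite in direction), 2.28 for acid lipases and 0.866 for pancreatic-type lipases. Without the unigene with most reads they were 1.19 for all, 0.560 for GPAT and AGPAT, 2.12 for MGAT and DGAT, 1.81 for acid lipases and 0.198 for pancreatic-type lipases; this setting was added later. With the unigene named AGPAT zeta, also added later, the ratio of the unigenes named GPAT was 0.875, against 0.134 without it. The cause of these shifts beyond the change of scale or members was not tested. Of 39 named unigenes, 36 kept their call with TMM scaling, 34 after centring and 38 with a pseudocount of 5 RPKM, and none changed sign while called. Matches were taken by their deposited names, and whether any was off-target was not tested. The deposited e-value, smaller for a closer match, was 9.93e-07 for Unigene53767 and 8.39e-06 for Unigene108872. No paired analysis was possible because each stage has 1 library. Leaving out a replicate was likewise not possible. Depth limits the 17 members with under 10 reads, where large ratios and equality could not be told apart.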

Other observations

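Receptors and membrane proteins outside the roles above, listed by name, differed among themselves. The LDL receptor list includes unigenes named low-density lipoprotein receptor-related protein 6, and a part of its unigenes in lipid uptake was not tested. The list of LDL receptor family unigenes had 21 of 36 lower in pupae and 3 higher, beside 41.4% lower and 14.7% higher of all unigenes with a database match; the counting interval excluded equality for 15 of the 21 and none of the 3. It held 446 reads in pupae and 1102 in prepupae (2.08-fold lower, 1.87 to 2.33); after centring 10 were lower and 4 higher. Its longest unigene, Unigene12992 of 3029 bases, named very low-density lipoprotein receptor, had 32 reads in pupae and 89 in prepupae (2.35-fold lower, 1.55 to 3.63). Vitellogenin receptor, which takes up yolk protein, had 2 reads in pupae and 31 in prepupae over 8 unigenes. The CD36 family, which includes fatty acid and pheromone carriers, had 4 of 27 unigenes higher and 12 lower, near those backgrounds. The family summed to 1325 reads in pupae and 1326 in prepupae, 1.18-fold higher after scaling to the library totals (1.10 to 1.28). Of its unigenes named croquemort, Unigene134942 had 413 reads in pupae and 14 in prepupae (35.0-fold higher, 20.6 to 64.5). The others were lower. Unigene153408 had 186 and 542 reads (2.46-fold lower, 2.08 to 2.92), and Unigene7557 had 4 and 41 (8.65-fold lower, 3.13 to 33.2). Unigene139602 had 0 and 26 (at least 7.31-fold lower against the floor, interval from 5.53). Unigene12992 and these croquemort unigenes were picked after their values were seen.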
